A study of Rattus norvegicus with 12 samples.

Results

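The genes described are 10 that encode enzymes of collagen crosslinking and hydroxylation, taken by symbol from a table of 35966 gene rows. They are the lysyl oxidase genes Lox, Loxl1, Loxl2 and Loxl3, the lysyl hydroxylase genes Plod1, Plod2 and Plod3, the prolyl 4-hydroxylase subunit genes P4ha1 and P4ha2, and the transglutaminase gene Tgm2. All 10 are in the table with 1 row each, and all 10 passed the filter for testing, which asked for at least 1 TPM (transcripts per 1000000) in at least 3 libraries. RNA-seq was done on H9c2(2-1), a myoblast line (genotype WT) from embryonic rat heart, in 12 libraries of 4 groups with 3 libraries each. Control cells were kept in high-glucose DMEM with 10% FBS. The GD cells went without glucose for 36 h. Cells of the remaining groups were deprived for 36 h and received EMP (empagliflozin, a glucose-lowering drug that blocks the renal sodium-glucose cotransporter SGLT2) at 100 µM or 200 µM. Every group comes from the same cell line. The labels name no serum for the deprived groups and no solvent for the drug, and they leave unsaid whether a group's 3 libraries came from different cultures. The p-values therefore measure the spread between these libraries, which may be technical, and any difference in serum or solvent cannot be told apart from that in glucose or drug.

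Collagen chains are modified inside the endoplasmic reticulum before they leave the cell. Prolyl 4-hydroxylase, a tetramer of alpha subunits (P4ha genes) and a beta subunit (P4hb), hydroxylates prolines, which lets the triple helix stay folded at body temperature. Lysyl hydroxylases (Plod genes) hydroxylate lysines, and these sites later carry sugars and set the kind of crosslink that forms. Both enzyme families need iron, oxygen, 2-oxoglutarate and ascorbate. After secretion, the copper enzymes of the lysyl oxidase family oxidise lysines and hydroxylysines so that neighbouring chains become bonded, and transglutaminase 2 joins glutamine to lysine side chains of matrix proteins such as fibronectin. In heart tissue these enzymes are known for their part in the stiffness of scar and fibrotic matrix.

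Of the 35966 rows, 12314 were tested. The libraries summed to between 946400.5 and 981389.8 TPM. The depth is unknown, because TPM do not carry the number of reads. Ribosomal protein and ferritin genes held 20.0% to 20.6% of the TPM in control libraries and 38.4% to 44.2% in the 9 deprived libraries, with the highest share in GD replicate 3. TPM share a common total, so a larger share for these genes leaves less for the others. Relative to control, the typical (median) tested gene stood at -0.65 on the log2 scale in GD, at -0.62 with the lower dose and at -0.50 with the higher dose. Relative to GD it stood at 0.02 with the lower and 0.14 with the higher dose, and the higher dose stood 0.12 above the lower. Changes were therefore also computed after median-of-ratios scaling, which brings these medians close to 0. Among the 11 cardiac markers looked at, Ryr2 was listed at 0 in every library, and Myh6, Myh7, Nppa, Nppb and Nkx2-5 averaged under 0.1 TPM in every group, so the labelled cell type, a myocardial cell, lacks most of its defining markers. Tnnt2 was the most abundant cardiac marker, with a mean of 142 TPM in control that GD cells brought to 23.1 TPM. Gata4 and Pln averaged 5.89 and 5.85 TPM in control, and 8 of the 11 cardiac markers averaged under 1 TPM there. The cardiac sum was 144 to 167 TPM in control, 23.2 to 29.2 in GD, 19.6 to 32.8 with the lower dose and 32.4 to 66.4 with the higher dose. The 11 skeletal muscle markers had a sum of 285 to 301 TPM per control library, and the sum was 29.8 to 33.9 TPM in GD libraries, 24.1 to 32.4 with the lower dose and 33.3 to 45.2 with the higher dose. The 8 fibroblast markers had sums of 9308 to 10488 TPM in control, 511 to 883 in GD, and 537 to 1004 and 1446 to 1783 with the lower and higher dose, most of it Col1a1, with Tcf21 listed at 0 throughout. In control, 5 of these 8 averaged under 1 TPM. The cardiac, skeletal muscle and fibroblast sums all fell on deprivation, as did the genes described here. With 200 µM the cardiac and fibroblast sums lay above those in GD, as did most of these genes but not P4ha1. The part of these sums in the results was not tested. The 6 endothelial markers summed to at most 0.50 TPM and the 6 leukocyte markers to at most 3.51 TPM in any library.

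All 10 enzyme genes fell in TPM when glucose was withdrawn, and the drop ranged from 1.51-fold for P4ha1 to 87.8-fold for Lox. In bulk RNA, fewer cells of a kind and less RNA per cell cannot be told apart. In the same comparison 67.6% of all tested genes were called lower (limma, adjusted p under 0.05), so a count of 10 of 10 is not far above the background. The sizes were larger than those of the typical gene: the median log2 fold change was -2.10 over the 10 genes and -0.65 over all genes. After median-of-ratios scaling 8 of the 10 were called lower, against 38.7% of all genes, with a median of -1.35 over the 10 genes. The 2 that were not called then were Plod3 (0.05) and P4ha1 (0.15), both of which turned to a slightly positive value.

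With 200 µM of the drug, 7 of the 10 genes were higher than in GD and P4ha1 was lower. The background was 32% of all genes called higher and 11.4% called lower. The 7 were Lox, Loxl2, Loxl3, Plod1, Plod2, P4ha2 and Tgm2. The median log2 fold change was 0.58 over the 10 genes and 0.14 over all genes. Median-of-ratios scaling gave 6 members higher and 2 lower, against 22.7% and 24% of all genes. With 100 µM, Tgm2 was called higher and Plod2 lower, where 7.51% of all genes were called higher and 5.46% lower, and the medians were -0.13 and 0.02. This count depends on single libraries and on scaling. It was 5 lower and 2 higher after median-of-ratios scaling, where 10.4% of all genes were lower and 8.1% higher. Without GD replicate 3 it was 5 lower, where 1615 of 12314 genes were lower. Between the doses, 7 of the 10 genes were higher at 200 µM than at 100 µM (limma, adjusted p under 0.05), against 25.7% of all genes. None was called lower, against 8.06%. The 7 were Lox, Loxl1, Loxl2, Loxl3, Plod1, Plod2 and Tgm2. With median-of-ratios scaling, 7 members were higher and P4ha1 was the 1 that was lower, where 18.6% of all genes were higher and 18.5% lower. Against control, all 10 genes were still lower at each dose, where 66.6% of all genes were lower at 100 µM and 62.8% at 200 µM. Median-of-ratios scaling left 8 and 7 of them lower, against 38.3% and 35.8%. The GD libraries stand in both the comparison with control and those with the drug, so an opposite sign in the 2 is not an independent result.

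**Figure D1:**
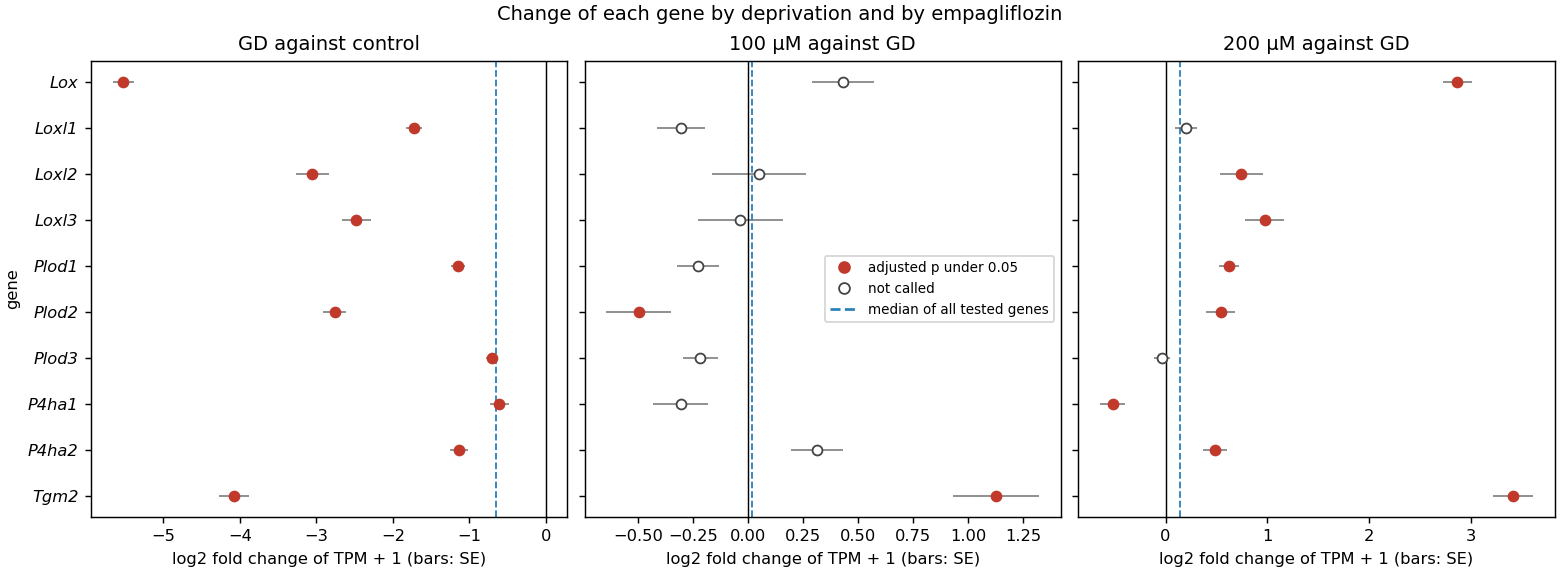
Log2 fold change of TPM + 1 (x axis, bars are standard errors) of each of the 10 genes (y axis) for GD against control, 100 µM against GD and 200 µM against GD, with genes at an adjusted p under 0.05 filled and the median of all tested genes dashed. Lox and Tgm2 have the lowest values on the left (-5.52 and -4.07) and the highest on the right (2.87 and 3.42). P4ha1 and Plod3 lie below 0 in all 3 panels, Plod3 only just on the right (-0.03).

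The prolyl hydroxylase subunits act early, on the new chain, and of the 10 genes P4ha1 lost least to deprivation. P4ha1, the gene of the main alpha subunit in most cells, was at 210, 206 and 198 TPM in the 3 control libraries and at 147, 152 and 108 TPM in GD. It was at 97.5, 123 and 106 TPM with 100 µM and at 88.6, 106 and 85.5 TPM with 200 µM. Each deprived library was below each control library, and the lowest GD library, replicate 3, lay within the range of the 100 µM libraries and just above those with 200 µM. That library also had the highest ribosomal protein and ferritin share (44.2%), whose part in this was not tested. P4ha1 fell by 0.61 on the log2 scale against control (SE 0.13, adjusted p = 0.000536), which is close to the change of the typical gene in this comparison. Scaling by median of ratios gave 0.15 (adjusted p = 0.109), and quantile normalization gave -0.17 (adjusted p = 0.138).

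With 200 µM of the drug P4ha1 was lower still, which makes it the only member called lower than GD at that dose in TPM as deposited. There it fell by 0.52 against GD (SE 0.13, adjusted p = 0.00455), or by 0.71 after median-of-ratios scaling. The lower dose put P4ha1 at -0.31 against GD (SE 0.13, adjusted p = 0.132). That value passed after median-of-ratios scaling (-0.34, adjusted p = 0.0155) and without GD replicate 3 (-0.46, adjusted p = 0.0112). The doses differed by -0.21 (SE 0.13, adjusted p = 0.211), or by -0.37 after that scaling (adjusted p = 0.00375).

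P4ha2, the gene of an alternative alpha subunit, moved the other way with the drug. It was at 100, 104 and 104 TPM in control and 47.1, 48.6 and 43.7 TPM in GD. With 100 µM it was at 56.0, 48.8 and 71.1 TPM, and with 200 µM at 59.6, 75.1 and 62.8 TPM. All 6 drug-treated libraries were above the 3 GD libraries, though by little in 100 µM replicate 2. P4ha2 fell by 1.13 on deprivation (SE 0.12, adjusted p = 1.08e-06). It rose by 0.49 with 200 µM against GD (SE 0.12, adjusted p = 0.00474), or stood at 0.30 after median-of-ratios scaling (adjusted p = 0.0533). The lower dose put P4ha2 at 0.31 against GD (SE 0.12, adjusted p = 0.103), which passed without 100 µM replicate 2 (0.44, adjusted p = 0.0267).

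P4ha1 therefore held a changing part of the alpha subunit transcripts. Its share of the summed P4ha1, P4ha2 and P4ha3 TPM was 62.5% ± 1.08 in control and 72.9% ± 2.73 in GD (SD, n = 3). It was 63.9% ± 5.82 with 100 µM and 57.9% ± 1.13 with 200 µM. A ratio within a library does not depend on scaling by a common factor, and this share differed among the 4 groups (exact permutation test of the spread between all 4 groups, which has no direction, p = 0.00734, adjusted p = 0.00734 over the 5 ratios tested). Its 3 GD values (69.7% to 74.5%) lay above all 3 values at 200 µM (56.7% to 58.9%) and overlapped those at 100 µM (58.9% to 70.3%). For any pair of groups of 3 libraries the smallest p an exact test allows is 0.1, so pairs of groups are compared by their ranges only.

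The beta subunit gene P4hb, which also encodes protein disulfide isomerase, did not follow the alpha subunits down. Its mean in control was 859 ± 22.5 TPM, and its mean in GD was 872 ± 50.6 TPM (log2 fold change 0.02, SE 0.06, adjusted p = 0.779, or 0.78 and called higher after median-of-ratios scaling). It fell by 0.30 with 100 µM and by 0.55 with 200 µM against GD (adjusted p = 0.00906 and 2.21e-05), to 709 ± 44.2 and 597 ± 37.6 TPM. The summed TPM of the alpha subunits was 327 ± 3.71 in control and 185 ± 26.9 in GD. It was 170 ± 12.2 with 100 µM and 162 ± 19.0 with 200 µM, so its mean did not rise with the drug. The alpha subunits held 0.381 ± 0.010 of the P4hb level in control and 0.212 ± 0.020 in GD, then 0.240 ± 0.022 with 100 µM and 0.270 ± 0.020 with 200 µM. This ratio differed among the groups (exact permutation test, p = 0.000909, adjusted p = 0.00114), and all 9 deprived libraries were below the 3 control libraries. P4ha3, a further alpha subunit gene that is no member of the set, went from 19.9 ± 1.02 TPM in control to 3.28 ± 0.29 in GD and 2.25 ± 0.24 with 200 µM.

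Sequence around the transcription start is shown for P4ha1, P4ha2 and Plod2. They were chosen because theirs are the windows among the members' that hold the core motif of the hypoxia response element. RefSeq promoter windows of 300 bases (250 before and 50 after the start) on build GRCr8 were matched by symbol for 7 of the 10 genes, that is P4ha1, P4ha2, Plod1, Plod2, Plod3, Loxl1 and Loxl3. The windows are chr20:27844796-27845095 on the plus strand for P4ha1, chr10:38743644-38743943 on the plus strand for P4ha2 and chr8:101964068-101964367 on the plus strand for Plod2. Capitals mark the core of the hypoxia response element, ACGTG, read on either strand (CACGT on the other strand).
P4ha1: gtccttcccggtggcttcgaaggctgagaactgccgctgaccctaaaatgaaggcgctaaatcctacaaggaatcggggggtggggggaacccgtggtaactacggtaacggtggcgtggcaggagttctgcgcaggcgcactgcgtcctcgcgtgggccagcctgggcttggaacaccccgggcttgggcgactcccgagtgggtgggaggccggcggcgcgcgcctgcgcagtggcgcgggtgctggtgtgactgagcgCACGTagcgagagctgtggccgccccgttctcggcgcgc
P4ha2: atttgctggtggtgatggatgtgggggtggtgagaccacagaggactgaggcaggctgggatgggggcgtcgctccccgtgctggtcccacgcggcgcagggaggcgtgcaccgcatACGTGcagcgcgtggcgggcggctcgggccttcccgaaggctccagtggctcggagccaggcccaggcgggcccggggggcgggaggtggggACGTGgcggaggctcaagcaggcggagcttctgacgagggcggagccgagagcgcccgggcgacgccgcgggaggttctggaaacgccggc
Plod2: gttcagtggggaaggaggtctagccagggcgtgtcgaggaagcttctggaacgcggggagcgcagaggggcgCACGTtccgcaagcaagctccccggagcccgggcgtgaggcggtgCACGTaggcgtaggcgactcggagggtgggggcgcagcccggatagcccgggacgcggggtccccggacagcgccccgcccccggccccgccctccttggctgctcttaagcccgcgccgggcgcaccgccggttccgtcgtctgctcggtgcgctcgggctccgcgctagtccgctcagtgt
The core occurs once in P4ha1, at base 12 after the start, and at 2 places each in P4ha2 (positions -133 and -41) and Plod2 (positions -178 and -133), counted in bases from the start. It is in 3 of the 7 windows and in 26.3% of the 8689 windows of tested genes. The TEAD motif CATTCC is in the windows of Loxl1 and Loxl3 (11.2% of tested genes), and the SMAD motif CAGAC is in those of Loxl1, Plod1, Plod2 and Plod3 (48.6%). The AP-1 motif TGANTCA is in none of the 7 windows (4.64%). Each motif was searched on both strands, and no matches of different motifs overlap in these 7 windows. These matches describe the letters only, and their part in the changes was not tested.

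The lysyl hydroxylase genes split by paralog. Plod2, whose enzyme modifies the collagen telopeptides from which the most stable crosslinks form, was at 61.2, 55.4 and 57.9 TPM in control and 8.49, 9.07 and 5.94 TPM in GD. It was at 4.78, 6.26 and 4.61 TPM with 100 µM and at 13.6, 11.0 and 10.7 TPM with 200 µM. The 200 µM libraries lay above all other deprived libraries, and those with 100 µM overlapped GD only through GD replicate 3. Plod2 fell by 2.76 on deprivation (SE 0.15, adjusted p = 1.71e-09) and rose by 0.54 with 200 µM against GD (SE 0.15, adjusted p = 0.00967). With 100 µM it fell by 0.50 against GD (SE 0.15, adjusted p = 0.0426). That call is weak: it was lost on leaving out any library except 100 µM replicate 2, 200 µM replicate 1 or GD replicate 3, with adjusted p of 0.0532 to 0.145. The fold change stayed between -0.39 and -0.66 over the left-out libraries, and median-of-ratios scaling gave -0.53 (adjusted p = 0.00778). The difference between the doses was 1.04 (SE 0.15, adjusted p = 0.000178).

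Plod1, the gene of the enzyme that hydroxylates lysines within the triple helix, was at 99.4, 104 and 105 TPM in control and 46.3, 50.8 and 41.0 TPM in GD. The 100 µM libraries had 35.3, 45.0 and 37.3 TPM, and with 200 µM at 73.6, 74.0 and 66.2 TPM. The 200 µM libraries stood between control and the other deprived libraries with no overlap. Plod1 fell by 1.15 on deprivation (SE 0.10, adjusted p = 1.26e-07) and rose by 0.62 with 200 µM against GD (SE 0.10, adjusted p = 0.000202). Against control it was still lower by -0.52 at 200 µM (adjusted p = 0.000253), a difference close to that of the typical gene, and after median-of-ratios scaling it was at 0.04 (adjusted p = 0.614).

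Plod3, whose enzyme also adds sugars to hydroxylysine, changed least of the lysyl hydroxylase genes on deprivation and, at each dose, against GD. Its range was 126 to 140 TPM in control, 76.3 to 90.1 in GD, 66.3 to 75.4 with 100 µM and 75.6 to 86.1 with 200 µM. It fell by 0.70 on deprivation (SE 0.08, adjusted p = 2.2e-06), near the median of all genes, and stood at -0.03 with 200 µM against GD (SE 0.08, adjusted p = 0.777), or at -0.22 and called lower after median-of-ratios scaling.

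Plod2 made up 19.7% ± 1.50 of the summed Plod TPM in control and 5.70% ± 0.77 in GD. It made up 4.51% ± 0.42 with 100 µM and 7.18% ± 0.85 with 200 µM. This share differed among the groups (exact permutation test, p = 0.00013, adjusted p = 0.000325). Plod3 held 45.6% ± 1.47 of the family in control and 60.6% ± 1.17 in GD, 61.5% ± 1.73 with 100 µM and 49.3% ± 1.20 with 200 µM. Plod1 was at 34.7% ± 0.03, 33.7% ± 0.40, 34.0% ± 1.34 and 43.5% ± 0.35 in control, GD, 100 µM and 200 µM, and these shares of Plod1 and Plod3 were not tested.

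**Figure D2:**
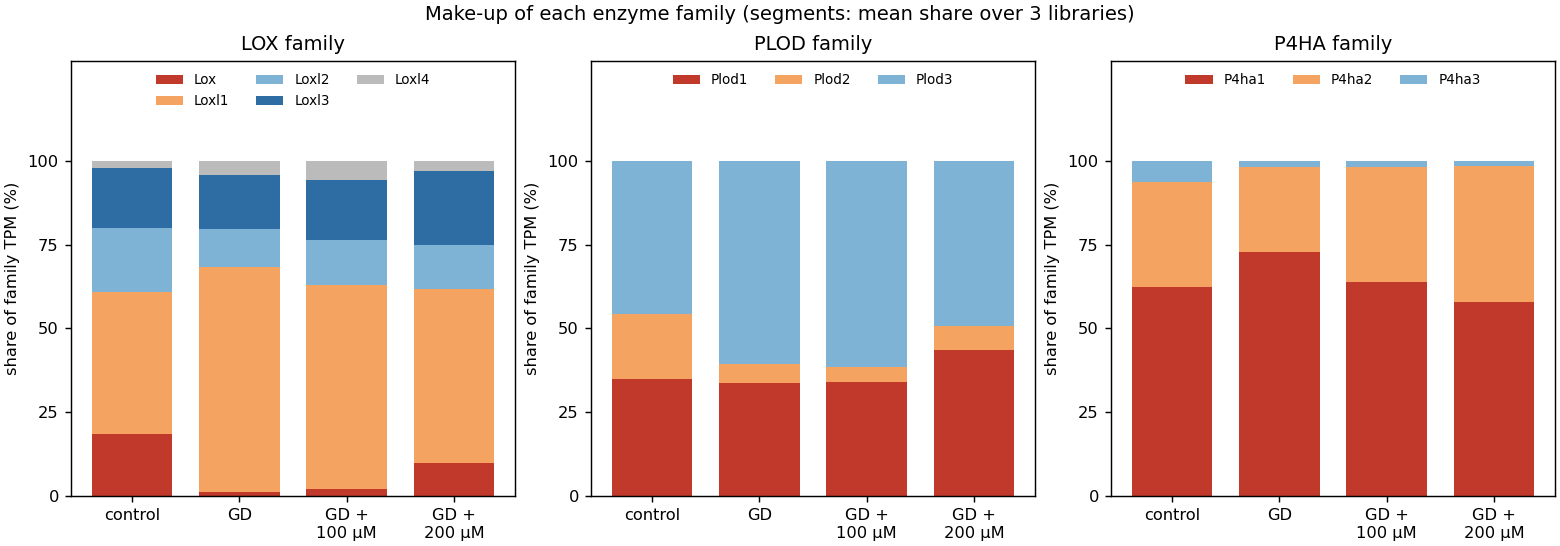
Share of each gene in the summed TPM of its family (y axis, percent, mean of 3 libraries) in control, GD and GD with 100 µM or 200 µM empagliflozin, for the LOX, PLOD and P4HA families. Lox shrinks from 18.4% to 1.09% of its family in GD and is at 9.80% with 200 µM, Plod2 shrinks from 19.7% to 5.70%, and P4ha1 widens from 62.5% to 72.9% in GD and is at 57.9% with 200 µM.

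Lox, the founding lysyl oxidase gene, lost nearly all of its transcript. It was at 98.0, 91.0 and 90.3 TPM in control and 1.09, 1.36 and 0.73 TPM in GD. With 100 µM it was at 1.30, 2.16 and 1.87 TPM, and with 200 µM at 14.7, 12.3 and 14.8 TPM. The 200 µM libraries were clear of all other deprived libraries and far below control, while 100 µM and GD overlapped. The mean TPM was 87.8-fold lower in GD than in control (log2 fold change -5.52, SE 0.14, adjusted p = 4.98e-12). It was 13.2-fold higher with 200 µM than in GD (2.87, SE 0.14, adjusted p = 2.8e-08), which left it 6.66-fold below control (-2.66, adjusted p = 3.66e-09). These folds are ratios of mean TPM. The log2 values, on TPM + 1, are smaller because the added 1 TPM weighs most on low values such as those of Lox in GD. These also lie near the 1 TPM filter. With 100 µM Lox stood at 0.43 against GD (SE 0.14, adjusted p = 0.0632). That difference passed after median-of-ratios scaling (adjusted p = 0.0253) and with a pseudocount of 0.1 (0.70, adjusted p = 0.0397), and also without GD replicate 2 (adjusted p = 0.0405) or 100 µM replicate 1 (adjusted p = 0.0278).

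The other lysyl oxidase genes kept more of their transcript. Loxl1, whose enzyme is known for elastin fibre assembly, had the highest mean of the 10 genes in control, at 208, 222 and 215 TPM, and was at 61.8, 73.5 and 58.5 TPM in GD. It was at 44.7, 56.1 and 55.4 TPM with 100 µM and 83.8, 72.1 and 67.2 TPM with 200 µM. The drug groups did not overlap each other, and 200 µM overlapped GD. Loxl1 fell by 1.73 on deprivation (SE 0.11, adjusted p = 7.38e-09) and stood at 0.20 with 200 µM against GD (SE 0.11, adjusted p = 0.15), or 0.01 after median-of-ratios scaling. Without GD replicate 2 the value was 0.30 (adjusted p = 0.0446). It stood at -0.31 with 100 µM against GD (SE 0.11, adjusted p = 0.0821), which passed after that scaling (adjusted p = 0.0189). The doses differed by 0.51 (SE 0.11, adjusted p = 0.00296).

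Loxl2, which encodes an oxidase of basement membrane collagen, ranged from 96.9 to 99.3 TPM in control, 7.94 to 14.0 in GD, 8.91 to 17.3 with 100 µM and 17.9 to 20.1 with 200 µM. It fell by 3.05 on deprivation (SE 0.21, adjusted p = 2.13e-08) and rose by 0.75 with 200 µM against GD (SE 0.21, adjusted p = 0.0127). The latter call was lost without GD replicate 3 (0.54, adjusted p = 0.0578), the library in which Loxl2 was lowest. Loxl3 ranged from 85.7 to 94.2 TPM in control, 13.5 to 18.5 in GD, 11.5 to 22.5 with 100 µM and 26.3 to 35.2 with 200 µM. It fell by 2.48 (SE 0.19, adjusted p = 6.74e-08) and rose by 0.97 with 200 µM against GD (SE 0.19, adjusted p = 0.00134). In 100 µM replicate 2, both genes were well above the other 2 libraries of that group. Against GD at 100 µM, Loxl2 was at 0.05 (SE 0.21) and Loxl3 at -0.04 (SE 0.19), and neither was called (adjusted p = 0.916 and 0.936). Between the doses, Loxl3 rose by 1.01 (adjusted p = 0.00158) and Loxl2 by 0.70 (adjusted p = 0.0231). The call for Loxl2 was lost without 100 µM replicate 1, 100 µM replicate 3, 200 µM replicate 1 or 200 µM replicate 2, with adjusted p of 0.0555 to 0.103.

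Lox held 18.4% ± 1.10 of the summed TPM of Lox, Loxl1, Loxl2, Loxl3 and Loxl4 in control and 1.09% ± 0.19 in GD. The share was 2.05% ± 0.25 with 100 µM and 9.80% ± 1.37 with 200 µM, and no library of any group overlapped with another group. It differed among the groups (exact permutation test, p = 6.49e-05, the smallest that the 369600 assignments allow, adjusted p = 0.000325). Loxl1 held the largest share in every group, with 42.4% ± 0.70 in control, 67.3% ± 2.25 in GD, 61.0% ± 6.10 with 100 µM and 51.9% ± 1.09 with 200 µM. The family summed to 507 ± 8.22 TPM in control, 96.3 ± 14.2 in GD, 86.0 ± 14.9 with 100 µM and 143 ± 13.7 with 200 µM. Loxl4, the remaining family gene and no member of the set, went from 10.1 ± 0.16 to 3.85 ± 0.71 TPM on deprivation and was at 4.29 ± 0.28 TPM with 200 µM.

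Tgm2 came closest to its control level with the drug among the genes that had fallen most. It was at 48.1, 46.7 and 49.1 TPM in control and 2.22, 1.46 and 2.11 TPM in GD. It was at 6.35, 3.68 and 6.45 TPM with 100 µM and at 34.7, 22.3 and 35.0 TPM with 200 µM. The 4 groups did not overlap, and replicate 2 was the lowest library in each of them. Tgm2 fell by 4.07 on deprivation on the scale of log2(TPM + 1) (SE 0.20, adjusted p = 7.62e-10). As a ratio of mean TPM the drop was 24.9-fold. It rose by 1.13 with 100 µM (SE 0.20, adjusted p = 0.00306) and by 3.42 with 200 µM (SE 0.20, adjusted p = 7.73e-08), each against GD, and the doses differed by 2.29 (SE 0.20, adjusted p = 3.78e-06). At 200 µM the mean was 0.639 of that in control (log2 fold change -0.66, SE 0.20, adjusted p = 0.00837), and after median-of-ratios scaling that difference was -0.10 (adjusted p = 0.707).

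**Figure D3:**
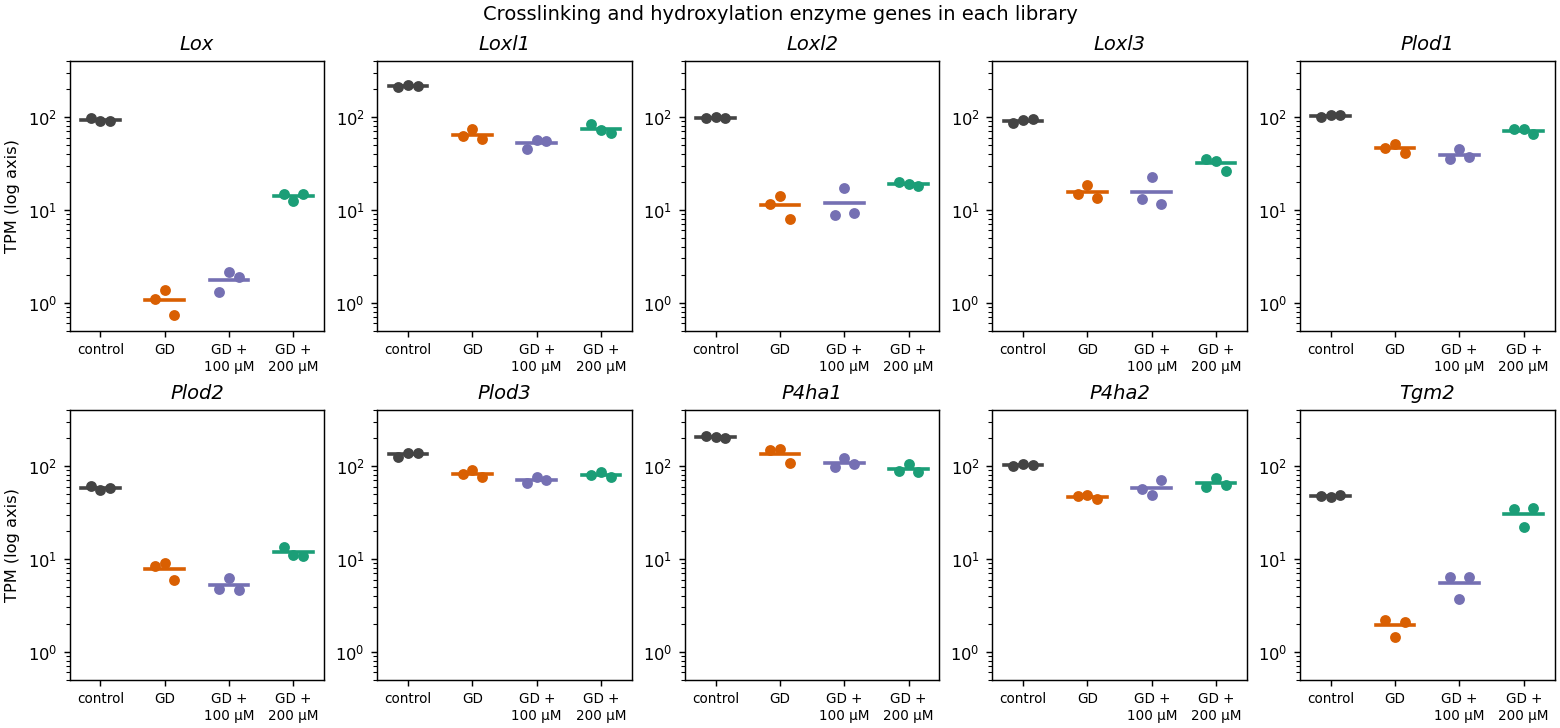
TPM of each of the 10 genes (y axis, log scale) in the 3 libraries of each group (points; the line is the mean), in control, GD and GD with 100 µM or 200 µM empagliflozin. Lox drops from a mean of 93.1 to 1.06 TPM and Tgm2 from 48.0 to 1.93 TPM in GD, Tgm2 reaches 30.7 TPM with 200 µM, and P4ha1 declines to 93.5 TPM at 200 µM.

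The order of the levels, which can be compared between genes because TPM are per transcript length, changed with deprivation. In control the order by mean TPM was Loxl1 (215), P4ha1 (205), Plod3 (135), Plod1 (103), P4ha2 (103), Loxl2 (97.8), Lox (93.1), Loxl3 (90.9), Plod2 (58.2) and Tgm2 (48.0). Loxl1 overlapped with P4ha1, Plod1 with P4ha2, Loxl2 with Lox and Lox with Loxl3, so these neighbours did not differ beyond their spread. In GD the leading genes were P4ha1 (135), Plod3 (82.6) and Loxl1 (64.6), each clear of the next, and the lowest were Plod2 (7.83), Tgm2 (1.93) and Lox (1.06). At 200 µM the 5 leading genes, P4ha1, Plod3, Loxl1, Plod1 and P4ha2, lay between 93.5 and 65.8 TPM, and each overlapped with its neighbour. There Tgm2 (30.7) had passed Loxl2 (19.0), and Lox (14.0) overlapped with Plod2 (11.7) at the bottom.

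The genes of the chains that these enzymes modify fell too. On deprivation all 4 fibrillar collagen genes looked at were called lower, where 67.6% of all tested genes were. Their median log2 fold change was -4.28, against -0.65 over all genes. The summed TPM of the fibrillar collagen genes Col1a1, Col3a1, Col5a1 and Col5a2 was 16258 ± 913 in control, 1018 ± 323 in GD, 1246 ± 494 with 100 µM and 2747 ± 362 with 200 µM. The hydroxylase genes (Plod1 to Plod3 and P4ha1 to P4ha3) summed to 0.0384 ± 0.0018 of that level in control and to 0.330 ± 0.065 in GD. The ratio was 0.247 ± 0.071 with 100 µM and 0.120 ± 0.017 with 200 µM. It differed among the groups (exact permutation test, p = 0.000195, adjusted p = 0.000325). All deprived libraries were above control, and those with 200 µM were below all other deprived libraries. All 4 collagen genes rose with 200 µM against GD, where 32% of all genes did. Col3a1 rose by 2.03 (adjusted p = 0.000279) and Col5a2 by 0.61 (adjusted p = 0.0051).

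**Figure D4:**
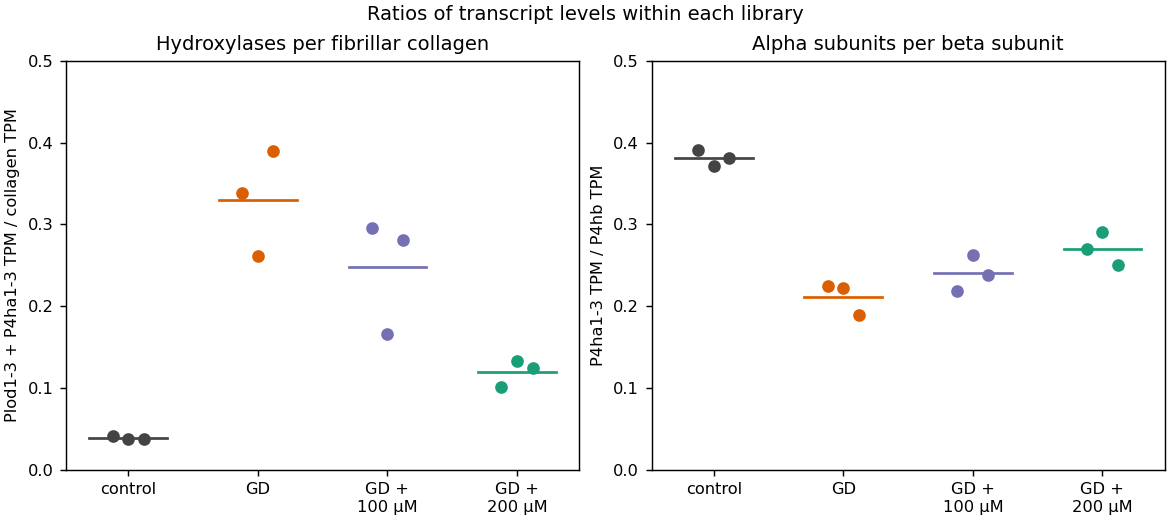
Left, summed TPM of the hydroxylase genes divided by that of 4 fibrillar collagen genes, and right, summed TPM of the 3 alpha subunit genes divided by P4hb, in each library (points) of control, GD and GD with 100 µM or 200 µM empagliflozin, with group means as lines. The left ratio goes from 0.0384 in control to 0.330 in GD and 0.120 with 200 µM, and the right ratio from 0.381 to 0.212 and 0.270.

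Most partner genes of collagen folding, processing and transport fell as well. Of 34 listed partners 27 were tested, and on deprivation 24 fell, 1 rose and 2 were not called, with a median log2 fold change of -1.70, where 67.6% of all genes were lower and their median was -0.65. With median-of-ratios scaling, 23 were called below control, against 38.7% of all genes, and 3 above it, against 4683 of 12314 genes. Those with the smallest p were Crtap, part of the prolyl 3-hydroxylation complex (230 ± 6.10 to 31.6 ± 2.84 TPM), Tll1, a procollagen C-proteinase gene (4.94 ± 0.07 to 0.26 ± 0.06 TPM), and Colgalt1, which adds galactose to hydroxylysine (109 ± 2.81 to 19.9 ± 3.10 TPM). The gene that rose was Ppib, a proline isomerase of the same complex as Crtap (0.58, adjusted p = 1.42e-06). Serpinh1, which encodes the collagen chaperone HSP47, fell by 0.95 (adjusted p = 4.24e-06, or -0.18 and adjusted p = 0.132 after that scaling), and Bmp1, the main procollagen C-proteinase gene, by 1.92 (adjusted p = 1.03e-08).

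With 200 µM against GD, 14 of the 27 partners rose and 5 fell, with a median of 0.32, where 32% of all genes were higher and 11.4% lower with a median of 0.14. Scaled by median of ratios the counts were 12 and 8, where 22.7% of all genes were higher and 24% lower, so the count lower was then near the background. Crtap (1.01, adjusted p = 4.34e-06), the zinc transporter gene Slc39a13 (1.04, adjusted p = 1.02e-05) and Bmp1 (0.72, adjusted p = 0.000458) were among those that rose. The 5 that fell were Ppib (-0.78), Fkbp14 (-0.83), P4hb (-0.55), P4ha3 (-0.40) and Serpinh1 (-0.38). Fkbp14, like Ppib, encodes a proline isomerase of the endoplasmic reticulum. With 100 µM against GD, P4hb (-0.30) and the isomerase gene Fkbp10 (-0.44, adjusted p = 0.0123) fell and the other 25 were not called. There 5.46% of all genes were lower, so this count is near the background.

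Because prolyl and lysyl hydroxylase genes are known targets of the hypoxia-inducible factor, and Lox and Tgm2 of TGF-beta, other targets of both were counted. Of 15 hypoxia-type targets, 4 rose and 6 fell on deprivation (median -0.22), where 67.6% of all genes fell and 1722 of 12314 rose. With 200 µM against GD 6 rose and 2 fell (median 0.13), where 32% of all genes rose and 11.4% fell, and once scaled by median of ratios 5 were higher and 4 lower (median 0.02), against 22.7% and 24%. The targets included Ldha, a lactate dehydrogenase gene (854 ± 22.7 TPM in control, 111 ± 6.94 in GD and 223 ± 17.2 with 200 µM), the carbonic anhydrase gene Car9 (3.16 ± 0.17, 0.31 ± 0.02 and 0.43 ± 0.17 TPM) and the mitophagy receptor gene Bnip3 (91.8 ± 7.73, 234 ± 27.3 and 142 ± 17.1 TPM). On deprivation, 8 of these 15 were higher and 4 lower once scaled by median of ratios, where 4683 of 12314 genes were higher and 4768 lower. Of 10 TGF-beta-type targets 9 fell on deprivation (median -4.37), against the same 67.6% of all genes. After that scaling 8 were lower and 2 higher (38.7% of all genes lower and 4683 of 12314 higher). With 200 µM against GD 8 rose (median 1.58), against 32% of all genes. After that scaling 8 were higher and 1 lower, against 22.7% and 24% of all genes. Acta2, smooth muscle actin, was at 5946 ± 166, 159 ± 5.91 and 892 ± 104 TPM in control, GD and 200 µM, and the matrix protein gene Tgfbi at 44.6 ± 2.18, 1.43 ± 0.05 and 3.61 ± 0.86 TPM.

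The genes whose changes from control were most like those of a member were found by the root mean square difference on the log2 scale over the 9 deprived libraries, among 10636 tested genes with an established symbol. For Lox they were Medag (0.29), Ctgf (0.35) and Gja5 (0.38). Medag, for example, was at 74.1 ± 0.87 TPM in control, 0.66 ± 0.40 in GD and 10.5 ± 2.23 with 200 µM. For Plod2 they were Pcyox1 (0.19), Ttyh3 (0.22) and Mgea5 (0.22). For P4ha1 they were Flvcr2 (0.08), Slc23a2 (0.10) and Cstf2 (0.12), and Slc23a2, which encodes a vitamin C transporter, was at 15.7 ± 0.21, 9.75 ± 2.20, 8.37 ± 1.13 and 6.72 ± 1.18 TPM in control, GD, 100 µM and 200 µM. For Tgm2 the near genes were less close, at 0.49 for Angpt1 and 0.51 for Kif26b. Angpt1 was at 18.5 ± 1.09, 0.97 ± 0.20, 1.86 ± 0.22 and 10.6 ± 2.67 TPM in those groups.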

How the data were processed

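The deposited table holds 1 column of TPM per library, made by the authors, for 35966 gene rows with symbols and no coordinates. HISAT2 and StringTie are the tools named, per the submitters' processing notes. No version, build, annotation or strandedness is given in the sources used here. That the deposited values are TPM was inferred from their column sums. Genes at 1 TPM or more in at least 3 libraries (12314) entered limma 3.58.1 (R 4.3.3) with its trend option, on the scale log2(TPM + 1), 1 mean per group over all 12 libraries, two-sided, with Benjamini-Hochberg adjustment over all genes tested and a threshold of 0.05. Fold changes on this scale understate the change of low genes. Ratios were tested by exact permutation over libraries (Python 3.11.15). The script was tested on simulated data. The members, lists, named-gene rule and alternatives were chosen with earlier results of these data known. All members are named, as are the 3 smallest p of each list on deprivation and the 3 nearest genes of 4 members, except for 2 genes that are not reported here. Ppib, Slc39a13, Fkbp10, Fkbp14, Serpinh1, Bmp1, Col3a1 and Col5a2 were named after their values were seen. The collagen sum uses 4 of the 5 listed chains. Efemp2 has more than 1 row, and the first was used. Protein sequences were not used here. The alternatives were 3 scalings, 2 filters, a pseudocount of 0.1, limma without trend, the compared groups alone, replicate number as a block, 2 stricter thresholds and each library left out.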

Additional observations from a re-analysis of the deposited data

Results flagged for a closer look

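Plod2 changed in opposite directions at the 2 doses relative to GD. It was at -0.50 with 100 µM and 0.54 with 200 µM, and the difference between the doses was 1.04 on the log2 scale (limma, adjusted p = 0.000178). All 3 libraries with 200 µM (10.7 to 13.6 TPM) were above all 3 with 100 µM (4.61 to 6.26 TPM). The lower level at 100 µM rests on a call that most left-out libraries end, though the value stayed between -0.39 and -0.66 over them and median-of-ratios scaling kept the call (-0.53, adjusted p = 0.00778), while the difference between the doses stayed past the threshold in every alternative run.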

How the results depend on the processing

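Of 1380 values of the 60 member changes under the alternatives, 1298 stayed on their side of the threshold, 52 lost and 27 gained the call. The remaining 3 were called in the main run and reversed. Changes that stayed called kept their direction, but those never called could change sign within the 1298. Loxl2 at 100 µM against GD, for example, ran from -0.24 to 0.22 over left-out libraries. The 3 reversals of called changes came with median-of-ratios scaling: Plod3 and P4ha1 in GD against control (0.052 and 0.15) and Plod1 at 200 µM against control (0.041). For 100 µM against GD the count of members lower (1) was 5 with median-of-ratios scaling, 3 with quantile normalization or without ribosomal protein and ferritin genes, and 0 without a filter, without trend, with the 2 groups alone, at an adjusted p under 0.01 or with a 2-fold change required. It ranged from 0 to 5 over left-out libraries. Among all tested genes the count lower moved too, from 672 to 1277 with median-of-ratios scaling, 1237 with quantile normalization and 954 without those genes. It was 528 (of 22319) without a filter, 610 without trend, 285 with the 2 groups alone, 284 at the stricter p and 22 with the 2-fold requirement. Over left-out libraries it went from 371 (without GD replicate 2) to 1615 (without GD replicate 3). The count of members higher (1) was 2 with each of those 3 scalings and a pseudocount of 0.1, and 1 to 2 over left-out libraries. Over all genes 925 were higher in the main run, 998, 1115 and 1068 with those scalings and 976 with that pseudocount. Over left-out libraries that count went from 536 (without 100 µM replicate 3) to 876 (without 200 µM replicate 1 or 2). For 200 µM against GD, scaling by median of ratios gave 2 lower, where 2952 of all genes were lower. A 2-fold requirement gave 0 lower and 2 higher, against 138 and 590 of all genes. Between the doses, 1 was lower with median-of-ratios or quantile scaling, against 2281 and 2456 of all genes. With a 2-fold requirement 4 were higher, against 399 of all genes. Against control at 200 µM that requirement left 6 lower, where 2910 of all genes were lower. Apart from scaling, the stricter thresholds and the filter, the cause was not tested. Libraries with the same number correlated by -0.0939 to 0.212 in their deviations (3 of 18 pairs above 0.1), so the numbers, to which the labels give no meaning, were not taken to pair the libraries. When each library was set against the 3 libraries of each other group, 17 of 36 times its own number correlated best of the 3. That is a hint from the data at most. With replicate number as a block, 2 members were lower at 100 µM than in GD, since Plod3 was added (-0.22, adjusted p = 0.0465), and 8 were higher at 200 than at 100 µM, again with Plod3 (0.19, adjusted p = 0.0424). With that block 697 of all genes were lower in the first comparison and 3269 higher in the second. All 5 within-library ratios stayed past the threshold in every alternative run. Depth is unknown, so no counting interval can be given, and Lox and Tgm2 in GD lie near the 1 TPM filter.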
